A study of Mus musculus with 22 samples.

Results

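Translation efficiency (TE), the density of ribosome footprints on the coding exons of a gene divided by the density of its mRNA reads, was measured in untreated neural stem cells (NSCs) of 4 mouse lines. NSCs are the dividing progenitors of the embryonic cortex that give rise to neurons and glia. A gene was included when it had more than 20 footprint reads and more than 20 RNA reads in each of the 4 lines, which left 4070 of the 20396 genes present in both sets of tables. The footprints set this limit, because 4309 genes had enough of them in every line whereas 10524 genes had enough RNA reads. TE was taken as the ratio of Ribo-Seq RPKM to RNA-Seq RPKM of the same line, put on a log2 scale, and set to 0 at the median gene of each line. Every log2 TE in the text is therefore a gene's TE relative to the median gene, not an absolute rate of translation.

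An mRNA is read by several ribosomes at once, and footprint density reports how many of them sit on it. Initiation is usually the slow step: the small subunit binds at the cap, scans the 5′ leader and starts at a suitable ATG, so ATGs upstream of the main one and weak bases around it reduce the number of ribosomes that reach the coding sequence. Certain mRNAs carry their own switch. mRNAs of ribosomal proteins and elongation factors begin with a terminal oligopyrimidine (TOP) tract through which growth signals govern their translation, ferritin mRNAs hold an iron responsive element that a protein binds when iron is scarce, and Atf4 mRNA has upstream reading frames that divert ribosomes in unstressed cells.

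All 8 libraries came from cortical NSCs derived at E12.5, grown with EGF and bFGF. KH2 cells are the control line of the tet system and carry no Msi transgene, and the MSI1 line carries a doxycycline (Dox) inducible Msi1 allele. Both were collected at the 72 h time point without Dox. C1 and C4 cells are floxed at Msi1 and Msi2, C4 also carries the inducible Cre and C1 does not, and both were collected at the 48 h time point without 4-OHT. Each line gave 1 RNA-Seq library of polyA-selected RNA and 1 Ribo-Seq library of monosome-protected fragments, from a series of 14 RNA-Seq and 8 Ribo-Seq samples. No line was repeated, so the 4 lines served as the repeats. The p-values of edgeR rest on the spread between these lines, with each gene's spread drawn towards that of all genes. They take the lines as independent, although TE was more alike within the tet-inducible and within the floxed lines than between them. Because the tet-inducible and the floxed lines differ in genotype, time point and the table of footprints they were deposited in, these factors cannot be told apart.

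Reads on genes ranged from 1691703 to 5859626 per Ribo-Seq library and from 12798187 to 56625825 per RNA-Seq library, and a tested gene had a median of 53, 148, 487 and 129 footprints in KH2, MSI1, C1 and C4. One gene, Hes7, held 69.7% of the KH2 footprints, and Tmco1 held 14.5% of those in MSI1. Vim, which marks radial glia and NSCs, had an RNA level of 1047, 986, 2415 and 2393 RPKM in KH2, MSI1, C1 and C4. Together with Fabp7, Slc1a3 and Sox2 it marked all 4 lines as NSCs, while all 4 microglial and all 4 endothelial markers were under 1 RPKM in every line. Glial and neuronal markers differed in RPKM between the families. All 5 astrocyte markers had higher RPKM in C1 and C4 than in KH2 and MSI1, from Gfap, at 0.918 and 0.825 RPKM in KH2 and MSI1 and 60.3 and 151 RPKM in C1 and C4, to Aldh1l1, at 114 and 122 against 172 and 142 RPKM. All 6 neuronal markers did so too, with summed RNA levels of 6.55 and 7.71 RPKM in KH2 and MSI1 and 23.0 and 24.7 RPKM in C1 and C4. The oligodendrocyte markers went different ways. In KH2, MSI1, C1 and C4, Olig2 was at 89.3, 80.2, 286 and 229 RPKM, higher in the floxed lines. Mag, at 0.052, 0.0104, 1.22 and 1.01 RPKM, was higher there too. Sox10, at 5.98, 6.55, 2.88 and 9.47 RPKM, did not separate the families, and nor did Mog, at 0.0238, 0.0431, 0.034 and 0 RPKM. RPKM of RNA is not on one scale across the families. Reads on genes were 12798187 of the 82717388 reads that RPKM was divided by in KH2, and 56625825 of 174214533 in C1. Vim RPKM was also higher in C1 and C4, while its RNA level relative to the median gene was similar in all 4 lines. Rises smaller than that of Vim, such as that of Aldh1l1, therefore do not show more RNA relative to the median gene. In bulk RNA, more cells of a type and more RNA per cell cannot be told apart. The Notch target Hes5 had less RNA in the floxed lines, with 124 RPKM in both tet-inducible lines, 8.42 in C1 and 6.97 in C4. Msi1 RNA, the targeted transcript, was at 20.5, 19.7, 27 and 9.46 RPKM in KH2, MSI1, C1 and C4, so C4 was lowest although no 4-OHT had been given. Msi2 RNA was at 29.9, 31.6, 51.5 and 39.5 RPKM in the same order.

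TE spanned more than the spread between lines for a minority of genes. The middle 80% of genes lay between log2 TE of −0.86 and 1.05 in KH2 and between −1.24 and 1.05 in C1, and the median gene had an SD of 0.35 over the 4 lines. By edgeR's quasi-likelihood test, with line as a block and a gene called at an adjusted p under 0.05 and at least 2-fold from the median gene, 371 genes (9.12% of those tested) were above and 308 (7.57%) below. The ranks gave 226 genes (5.55%) in the top decile and 132 (3.24%) in the bottom decile of TE in all 4 lines, where a decile holds 10% of the genes. Across genes, which are not independent replicates, log2 TE correlated with Pearson r of 0.893 between KH2 and MSI1, 0.922 between C1 and C4, and 0.712 to 0.786 between a tet-inducible and a floxed line. The footprints of a family were deposited in the same table, so the within-family values also hold whatever those libraries share.

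The genes with the highest TE shared coding sequence with other places in the genome. The 12 genes that stood highest in their lowest line, among those with over 100 reads in all 8 libraries, were the tubulin Tuba1b, the chromatin protein Hmgb2, the 14-3-3 protein Ywhaq, the helicase Eif4a1, the histones H3f3a, Hist3h2a and Hist1h1c, the splicing factor Hnrnpf, the actin partner Tmsb10, the clathrin adaptor Ap2m1, the actin Actg1 and the chromatin protein Morf4l1. Tuba1b had log2 TE of 7.0, 7.60, 7.61 and 8.06 in KH2, MSI1, C1 and C4, from RNA levels of only 4.43 to 7.85 RPKM and footprint levels of 265 to 970 RPKM (edgeR log2 TE 7.57 ± 0.30 SE, adjusted p = 3.81e-06). Hnrnpf had 5.20, 5.13, 5.29 and 5.34, an SD of 0.09. Each of the 12 has coding sequence that recurs elsewhere in the genome: the share of its 32-base words found more than once ran from 18.5% for Hist3h2a to 100% for H3f3a and Tmsb10.

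Repeated sequence was concentrated among the genes with the highest TE. Genes with more than 10% repeated words made up 16.1% of all tested genes (655), but 76.0% (282) of those called above and 86.7% (196) of those in the top decile of all 4 lines, against 4.87% of those called below. In the top decile of single lines their share ran from 60.0% to 74.7%, and in the bottom decile from 3.19% to 11.3%. A further 68 genes had over 100 footprints in every line and an RNA value listed at 0 in every line. A repeated share could be computed for 65 of these, and its median was 100% and its lowest value 76.5%. They included Gapdh, with 3507, 9437, 12361 and 3684 footprints in KH2, MSI1, C1 and C4, and Rps6, with 176, 388, 7937 and 2232, and no TE could be given for them. Results are therefore given for all genes and for low-copy genes, defined by a repeated share of at most 10% (3414 genes). How the RNA-Seq and Ribo-Seq pipelines placed reads with several matches was not tested.

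Among low-copy genes, 88 (2.58%) were called above, 293 (8.58%) below, 29 (0.849%) were in the top decile of all 4 lines and 127 (3.72%) in the bottom decile. Genes called below were thus nearly all low-copy, and genes called above mostly were not.

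**Figure D1:**
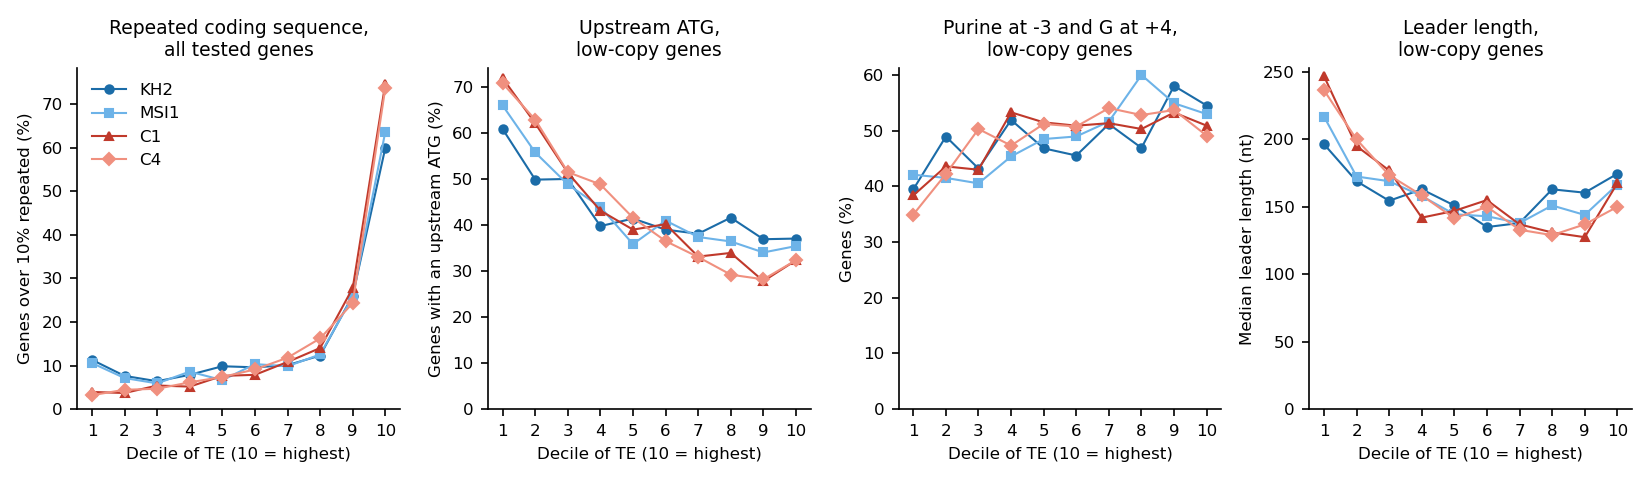
Genes were ranked by TE within each line and split into deciles, shown on the horizontal axis from lowest (1) to highest (10), with 1 line of points per cell line. The first panel gives the percentage of all 4070 genes with over 10% repeated coding sequence, which reached 60.0% to 74.7% in the highest decile; the other panels cover low-copy genes and give the percentage with an upstream ATG, the percentage with a purine 3 bases before the start codon and a G right after it, and the median leader length in nt. The share with an upstream ATG and the median leader length were highest in the lowest decile of every line.

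The 12 low-copy genes that stood highest under the same rule, a set chosen after the values were seen, were Dpysl2, Tubb4, Nucks1, Actb, Acta2, Nme1, Cnbp, Pgap1, Nnat, Abhd2, Mtap1b and Gatad2b. Dpysl2, which encodes the tubulin-binding protein CRMP2 of growing axons, had log2 TE of 3.51, 3.66, 3.71 and 3.60 in KH2, MSI1, C1 and C4 (edgeR 3.62 ± 0.16 SE, adjusted p = 6.61e-06). Its footprint levels of 45.3, 54.5, 109 and 28.8 RPKM stood on RNA levels of only 14.1, 14.0, 13.2 and 15.2 RPKM. The 4 values of Dpysl2 spanned 0.21 on the log2 scale, with an SD of 0.09.

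Nucks1, a DNA-binding nuclear phosphoprotein, had log2 TE of 1.81, 1.79, 1.75 and 1.80 in KH2, MSI1, C1 and C4, the tightest of the 12 with an SD of 0.03. Nme1, a nucleoside diphosphate kinase, had 2.0, 2.01, 1.49 and 2.30 in the same order. Cnbp, a zinc-knuckle protein that binds nucleic acids, had 1.16, 1.46, 1.48 and 1.28. The values of these 3 genes, from 1.16 for Cnbp to 2.30 for Nme1, all lay above the 2-fold limit, and edgeR gave adjusted p of 5.94e-05 for Nucks1, 0.000167 for Nme1 and 0.00063 for Cnbp. Mtap1b, a microtubule-associated protein, had 1.28, 1.02, 1.05 and 0.99. Mtap1b carried 458, 1102, 10294 and 2240 footprints. The tubulin Tubb4, the actins Actb and Acta2 and the imprinted gene Nnat were also above in every line, but lower in the floxed lines: Actb had 3.01 and 3.21 in KH2 and MSI1 and 1.75 and 2.40 in C1 and C4. Footprints of Actb were counted over only 252 nt.

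The genes with the lowest TE were mostly low-copy. The 12 genes lowest in their highest line were the transcription factor Jund, the E3 ligase Rnf10, the receptor phosphatase Ptpra, the Rab regulator Dennd5a, the chromatin proteins Setd5 and Mll5, the mitochondrial genes mt-Cytb and mt-Nd5, the ErbB2-binding scaffold Erbb2ip, the chloride channel Ttyh3, the adhesion receptor Bai2 and 2610507B11Rik. Of these 12, mt-Nd5 alone had over 10% repeated words. Jund, a subunit of the AP-1 factor, had log2 TE of −1.99, −1.68, −3.34 and −1.78 in KH2, MSI1, C1 and C4 (edgeR −2.18 ± 0.29 SE, adjusted p = 0.00129). Jund mRNA was plentiful, at 115, 113, 53.6 and 53.3 RPKM, with footprint levels of 8.23, 10.8, 3.34 and 2.42 RPKM. C1 was the lowest of the 4 lines for Jund, Rnf10, Ttyh3, Bai2 and mt-Cytb.

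Ptpra had the tightest low value, with log2 TE of −1.54, −1.55, −1.54 and −1.65 in KH2, MSI1, C1 and C4 and an SD of 0.05 (edgeR adjusted p = 0.000265). Its RNA was at 116, 107, 116 and 114 RPKM, though RPKM of RNA is not on one scale across the families. Brd2, a bromodomain reader of acetylated histones named here as the lowest low-copy member of the chromatin list, had −2.07, −2.28, −2.41 and −2.04 (edgeR −2.21 ± 0.16 SE, adjusted p = 5.78e-05). Brd2 rested on as few as 40 footprints in KH2, and on 358 in C1. The plot of named genes shows the values of both sets line by line.

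**Figure D2:**
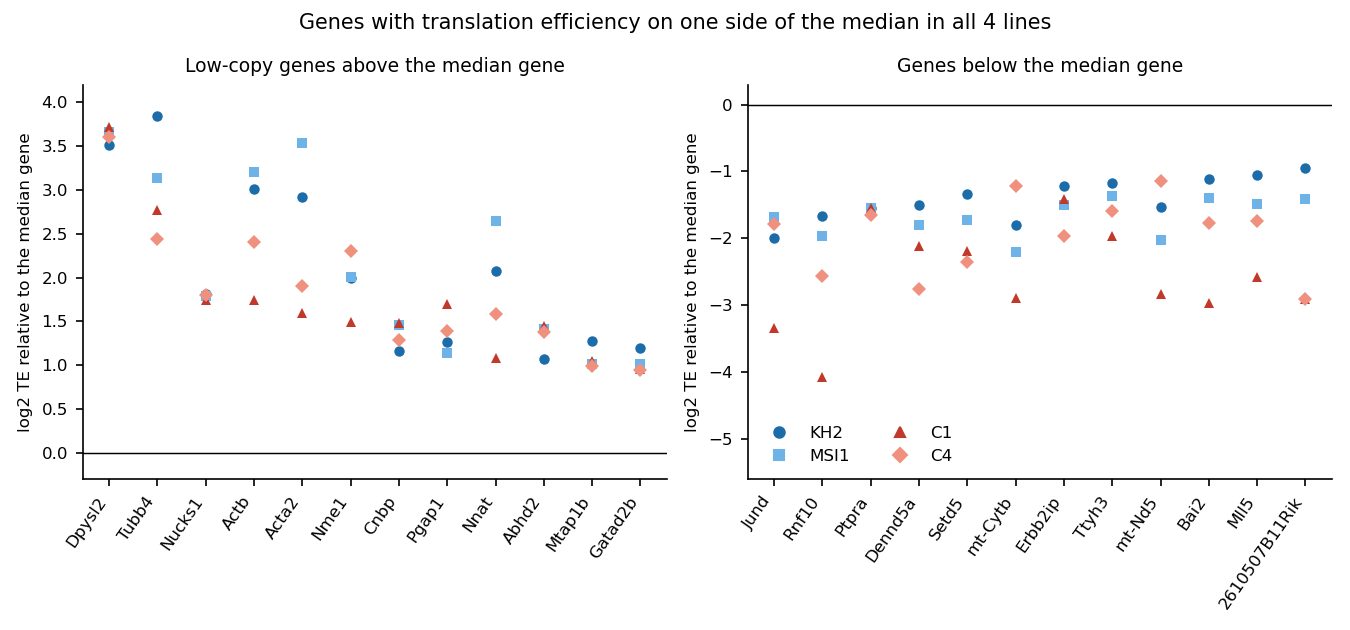
Each column is a gene and each point 1 cell line, with log2 TE relative to the median gene on the vertical axis; the left panel holds the 12 low-copy genes highest in their lowest line and the right panel the 12 genes lowest in their highest line. Points of Dpysl2, Nucks1 and Ptpra nearly coincide, whereas C1 sits below the other lines for Jund and Rnf10.

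The sequence around the start codon and the number of upstream ATGs are shown for 3 low-copy genes of each kind whose start codon lies within a single exon, chosen after their values were seen, to set the leaders of mRNAs with high and low TE side by side. Sequences were read from NCBIM37 (mm9) with the GENCODE vM1 annotation, capitals mark the ATG, the base 3 positions before it and the base right after it, and each stretch covers the end of the 5′ leader and the first coding base after the ATG.
Dpysl2 (chr14:67487202-67487215, minus strand): ccccggaGagATGT
Nucks1 (chr1:133807301-133807314, plus strand): gacagcgAacATGT
Cnbp (chr6:87795770-87795783, minus strand): aactgcaGctATGA
Brd2 (chr17:34255573-34255586, minus strand): tgaggtcAagATGC
Jund (chr8:73222947-73222960, plus strand): gaaggtgGggATGG
Ttyh3 (chr5:141124778-141124791, minus strand): cccgcccGccATGG
All 6 have a purine in the first capital position, and the G after the ATG is found only in Jund and Ttyh3, both of low TE. The leaders differ more. Dpysl2, Nucks1 and Cnbp have leaders of 320, 276 and 217 nt with 0 upstream ATGs. Brd2 has 1425 nt with 8 upstream ATGs, Jund 1319 nt with 13, and Ttyh3 204 nt with 1. Not every gene with high TE lacks upstream ATGs: Nme1 has a leader of 305 nt with 2 and the matrix gene Vcan 443 nt with 3. The leader lengths come from 1 annotated transcript per gene and need not be the leader these cells use. Ptpra, also low, has an annotated leader of 21 nt with 0 upstream ATGs.

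Over all low-copy genes, leader features differed between the lowest and the highest decile of TE in every line. An upstream ATG was present in 60.8% to 71.9% of genes in the bottom decile, depending on the line, and in 32.3% to 37% of those in the top decile. Median leader length was 196.5 to 247 nt in the bottom decile and 150 to 174.5 nt in the top decile, and the median GC content of the leader 69.5% to 70.8% against 63.6% to 66.1%. The favoured start context, a purine 3 bases before the ATG and a G after it, was found in 34.9% to 42.1% of the bottom decile and 49.1% to 54.5% of the top decile. In none of these features did the ranges over lines of the 2 deciles overlap. Leader length did not fall steadily with TE, since in KH2 its median was 135 nt in the sixth decile and 174.5 nt in the highest. Ranked by mean TE, upstream ATGs were present in 71.8% of genes in the lowest decile, 41.4% in the fifth and 33.4% in the highest. The total length of the counted exons overlapped between the deciles among low-copy genes, with medians of 1308 to 2178 nt in the bottom and 721.5 to 1340 nt in the top decile. Across low-copy genes the rank correlation of TE with the number of upstream ATGs was −0.12 in KH2, −0.18 in MSI1, −0.26 in C1 and −0.27 in C4, and that with exon length −0.01, −0.11, −0.32 and −0.34. These are weak descriptions across genes that share the libraries, and exon length enters RPKM on both sides of the ratio.

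The mRNAs with a known translational switch were taken from a panel of 43 genes, of which 26 were measured: 8 were above, 2 below and 16 on neither side, where 9.12% and 7.57% of all tested genes were above and below. Both below were switch mRNAs. Fth1, the ferritin heavy chain, had log2 TE of −2.70, −2.72, −2.49 and −2.51 in KH2, MSI1, C1 and C4 (edgeR −2.60 ± 0.16 SE, adjusted p = 2.6e-05), from RNA levels of 300.0 to 532 RPKM and 83 to 734 footprints. Ftl1, the ferritin light chain, had −0.57, −0.27, −1.45 and −0.78, below the median gene in every line but short of the 2-fold limit (edgeR −0.77 ± 0.21 SE, adjusted p = 0.0245). The repeated share was 20.9% for Fth1 and 85% for Ftl1. Both leaders hold the loop of the iron responsive element inside a matching stem, read from NCBIM37 with the CAGTGN loop in capitals.
Fth1 (chr19:10057225-10057248, plus strand): ctgcttcaaCAGTGCttgaacgga
Ftl1 (chr7:52715151-52715174, minus strand): ttgcttcaaCAGTGTttgaacgga
The loop with a paired stem was found in 10 of 3990 leaders (0.251%), read on the strand of the mRNA only. A match of this shape is a description of the sequence and does not show that a protein binds it.

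Atf4, the transcription factor of the integrated stress response, had log2 TE of −1.74, −1.57, −4.16 and −3.86 in KH2, MSI1, C1 and C4 (edgeR −2.88 ± 0.49 SE, adjusted p = 0.00378). All 4 values lay below the median gene, and those of the floxed lines lay further below (difference −2.40 ± 0.29 SE, edgeR adjusted p = 2.02e-07). Its RNA level was 31.7 and 36 RPKM in KH2 and MSI1 and 158 and 163 RPKM in C1 and C4, while its footprint level was 2.68, 3.75, 5.57 and 1.76 RPKM. RPKM of neither assay is on one scale across the families, and Hes7 held 69.7% of the KH2 footprints. Of the other stress mRNAs with upstream reading frames, Atf5, Ddit3, Ppp1r15a and Ppp1r15b had too few footprints in at least 1 line: Atf5 had 16, 42, 18 and 16 footprints on 376, 644, 2502 and 2441 RNA reads. Mdm2, the other measured mRNA of that list, had −0.06, −1.53, −0.82 and −0.62 and was not called. Oaz1, the polyamine-regulated antizyme made by frameshifting, was above, with 1.74, 2.11, 2.45 and 3.69, but 95.6% of its coding words were repeated. The selenoprotein mRNAs went both ways: Gpx1, low-copy, had −0.96, −1.37, −1.55 and −1.63, and Gpx4, 87.9% repeated, had 2.74, 2.55, 2.29 and 2.42.

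Msi1 and Msi2, the RNA-binding proteins the lines were built to alter, both lay above the median gene in every line. Msi1 had log2 TE of 0.10, 0.11, 0.47 and 0.93 in KH2, MSI1, C1 and C4 and was not called. Msi2 had 1.35, 0.41, 1.11 and 1.41 and passed (edgeR 1.07 ± 0.21 SE, adjusted p = 0.00679), but its fitted value dropped under the 2-fold limit without KH2 (0.98) or without C4 (0.95). Footprints of Msi2 were counted over only 287 nt. Among the other mRNA-binding regulators, 3 low-copy genes that act in mRNA silencing and deadenylation were below: Cnot6 with −2.05, −2.04, −3.07 and −2.61, Cnot7 with −1.46, −2.76, −1.62 and −2.89, and the Argonaute gene Eif2c1 with −0.70, −0.88, −1.67 and −1.63. Tnrc6b, a silencing partner of Argonaute, was above with 2.48, 1.96, 0.60 and 0.22. Of 30 measured members of this list, 5 were above, 3 below and 22 on neither side, against 9.12% above and 7.57% below of all tested genes. Of its 23 low-copy members 2 were above and 3 below, against 2.58% and 8.58% of low-copy genes.

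Gene classes were compared by the median of their measured members, for 35 lists with at least 5 members. A class was taken as consistent when its median lay at least 0.5 from the median gene, on the same side, in all 4 lines, and 4 lists met this. Counts of members above are to be read against 9.12% of all tested genes and 2.58% of low-copy genes. Among the 655 tested genes with over 10% repeated words, 282 were above. Replication-dependent histones had medians of 6.50, 6.54, 4.42 and 5.43 in KH2, MSI1, C1 and C4, with all 5 measured members of 43 called above. Their mRNAs end in a stem loop and not a poly(A) tail, the RNA had been polyA-selected, and the part of this in the values was not tested. Actins, tubulins and intermediate filaments had medians of 0.63, 0.62, 0.96 and 0.71, with 13 of 28 members above. Of the 28, 17 had over 10% repeated words. Among the 11 low-copy members of that list the medians were −0.17, −0.09, −0.09 and 0.17, and 1 (Actb) was above. The tubulin Tubb4 and the actin Acta2, both low-copy and above, were not in the list as it was written. Cytosolic ribosomal proteins had medians of 0.65, 0.54, 3.29 and 3.12, with 20 of 37 above, and 36 of the 37 had over 10% repeated words. This list no longer met the limit with over 50 or over 100 reads, or with only genes of matching exon lengths. It also failed with RNA of the untreated MSI2 line in place of that of KH2 and MSI1. Histones and the cytoskeletal list each dropped out under some alternatives too.

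The mitochondrially encoded subunits were the class consistently below. Medians of the 7 measured genes were −1.07, −1.02, −2.84 and −1.14 in KH2, MSI1, C1 and C4. Of these 7 genes, 6 were called below, against 7.57% of all tested genes. These mRNAs are read by the ribosomes of the mitochondrion and not by those of the cytosol. mt-Cytb, an enzyme subunit of respiratory complex III, had −1.81, −2.20, −2.90 and −1.22 from 1205 to 11907 footprints (edgeR −2.03 ± 0.33 SE, adjusted p = 0.00312). mt-Co1, of complex IV, had −1.0, −1.02, −2.51 and −0.80. C1 was the lowest line for both. The exception was mt-Nd6, the gene on the other strand, with 0.99, 0.45, 1.35 and 2.11 (edgeR 1.22 ± 0.28 SE, adjusted p = 0.0138). Strand was not stated for the counting, so reads of mt-Nd6 and of the transcript opposite it cannot be told apart.

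Of the 4 consistent lists, the cytoskeletal one alone had at least 5 low-copy members, so the others could not be judged on such genes. The 3 low-copy mitochondrially encoded genes had medians of −1.07, −0.80, −2.90 and −1.18. Of the 29 lists with at least 5 low-copy members, 0 lay 0.5 from the median gene on one side in all 4 lines. On the high side, the list of collagens, laminins and matrix glycoproteins, all 27 of them low-copy, had medians of 0.92, 1.10, 0.12 and 0.47. In that list edgeR, DESeq2 and limma each called 7 above and 0 below, against 2.58% above and 8.58% below of all low-copy genes by edgeR, which gave 1 matrix gene below at an unadjusted p under 0.05. Those above were Vcan, Col12a1, Lamc1, Nid2, Tnr, Hspg2 and Col4a5. Vcan, the proteoglycan versican, had 1.96, 2.04, 1.85 and 2.12, an SD of 0.12 (edgeR adjusted p = 0.000111), from 37 to 220 footprints. Lamc1, the laminin gamma chain, had 2.05, 1.66, 1.31 and 1.14. On the low side, the immediate early and AU-rich mRNAs had low-copy medians of −0.52, −0.62, −0.94 and −0.24 over 8 genes, with Jund and Zfp36l2 below. Numbered zinc finger proteins had −0.16, −0.20, −0.53 and −0.55 over 37 low-copy genes, 5 of them below, including Zfp358 with −2.15, −1.53, −2.10 and −1.54.

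**Figure D3:**
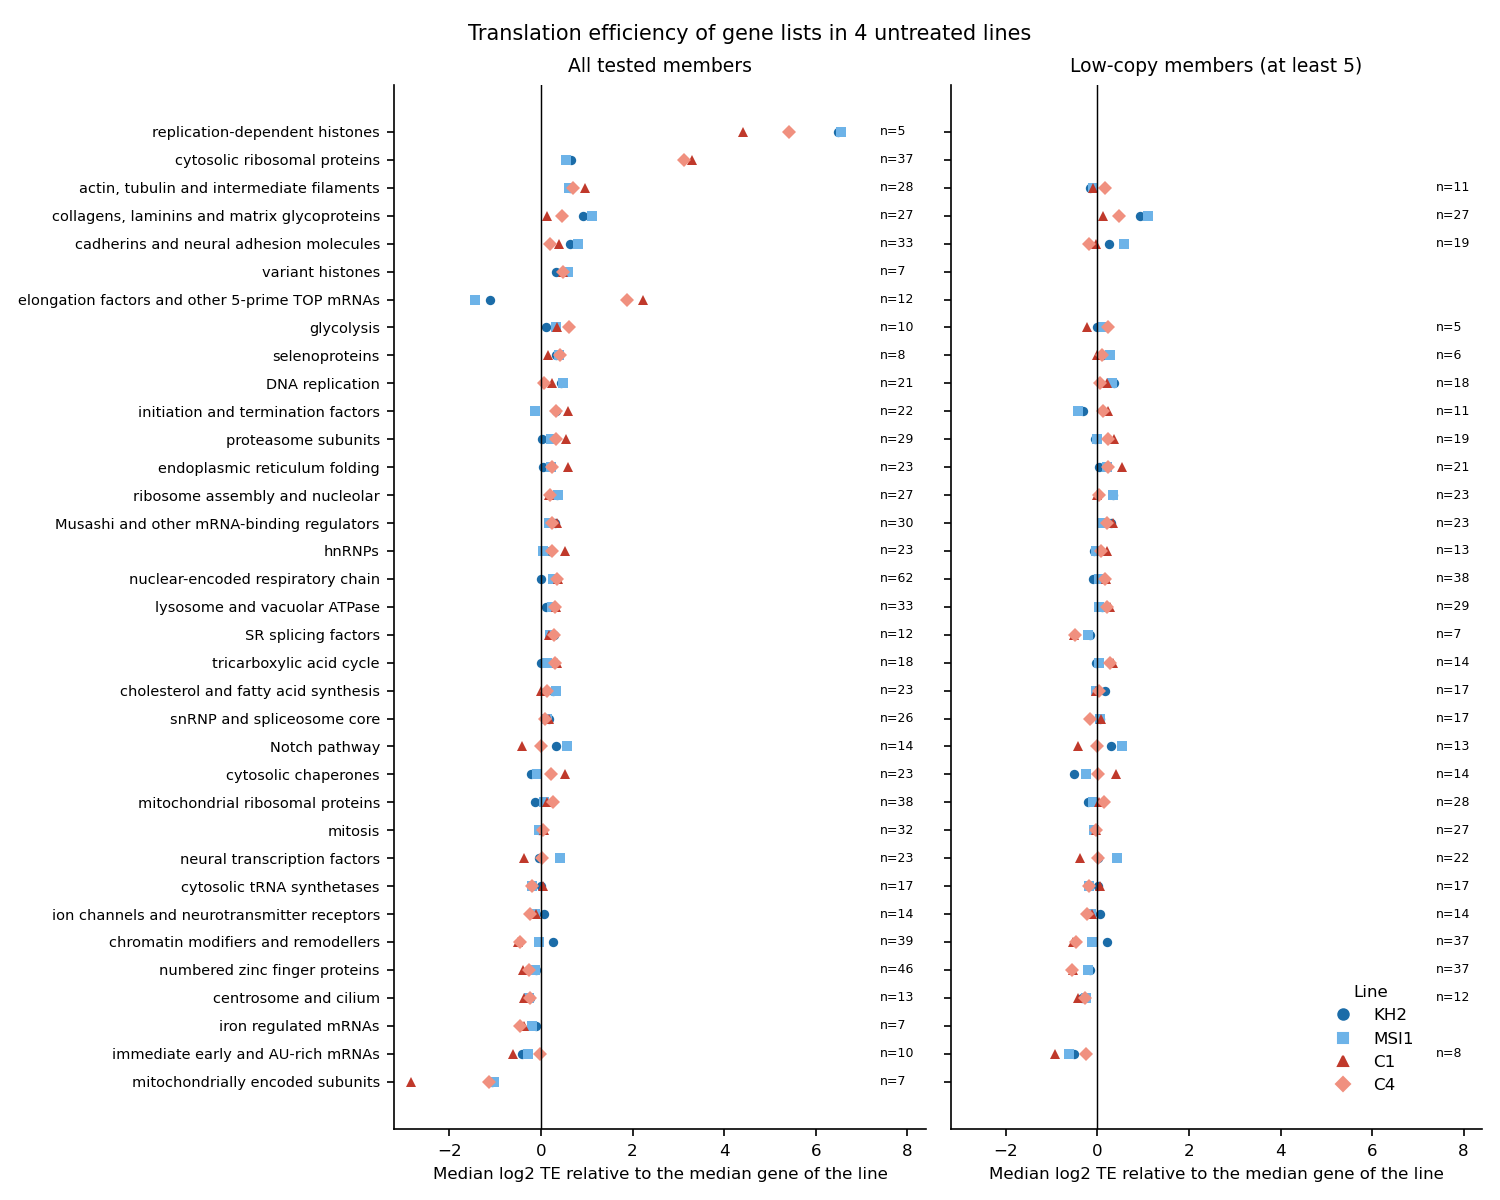
Each row is a gene list and each point the median log2 TE of its members in 1 cell line, relative to the median gene of that line; n is the number of members. The left panel uses all measured members and the right panel low-copy members, for lists that have at least 5. Cytoskeletal genes lie to the right in the left panel and near 0 in the right one, histones and ribosomal proteins have too few low-copy members for the right panel, and the 2 floxed lines stand apart for ribosomal proteins and other TOP mRNAs.

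Most housekeeping classes sat close to the median gene. Cytosolic tRNA synthetases, all 17 low-copy, had medians of 0.01, −0.19, 0.05 and −0.19. Endoplasmic reticulum folding factors had 0.04, 0.22, 0.59 and 0.24 over 23 genes, and their chaperone Hspa5 (BiP) had 0.25, 0.45, 0.59 and 0.41. In both lists edgeR, DESeq2 and limma called 0 genes in either direction. At an unadjusted p under 0.05 and with no fold limit, edgeR gave 2 of the tRNA synthetases below and 7 of the folding factors above. Proteasome subunits had 0.02, 0.21, 0.55 and 0.34, with 5 of 29 above, of which Psma3, with 4.35, 4.24, 4.90 and 4.41, was low-copy. Nuclear-encoded respiratory chain genes had 0.00, 0.27, 0.37 and 0.35, with 11 of 62 above, of which the low-copy members were Ndufa7 and Ndufa1. Mitochondrial ribosomal proteins had −0.12, 0.07, 0.13 and 0.26, with 4 of 38 above, all 4 repeated. The counts above in these lists are to be read against 9.12% of all tested genes and 2.58% of low-copy genes.

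Among transcriptional regulators and channels, the low-copy members below were 3 of 37 chromatin modifiers, 2 of 22 neural transcription factors and 3 of 14 ion channels and neurotransmitter receptors, against 8.58% of all low-copy genes. The chromatin modifiers were Brd2, Mll5 and Chd7. Neural transcription factors had Nr2f1, with −1.27, −1.24, −1.68 and −1.87, and Pou3f3, with −0.90, −0.82, −2.31 and −0.97, below, and Sox10, with 1.67, 2.15, 1.0 and 0.73, above. Sox2, the pluripotency and NSC factor, was not called, with −0.04, 0.45, −1.13 and −0.45. Among the channels and receptors below was the kainate receptor subunit Grik5, with −1.29, −1.63, −3.49 and −2.39.

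The Notch pathway, which keeps NSCs from differentiating, held members on both sides. Notch1 had log2 TE of 2.13, 2.02, 1.27 and 1.60 in KH2, MSI1, C1 and C4 (edgeR 1.76 ± 0.20 SE, adjusted p = 0.000554). Its footprints were counted on only 1 exon of 202 nt, so the value need not hold for the whole mRNA. Notch2 had 2.08, 1.93, 0.65 and 1.17 and was also above. The nuclear partner Rbpj had 2.80, 2.97, 3.53 and 3.63, with 93.3% repeated words. Numbl, a Notch antagonist, was below, with −0.40, −0.45, −1.82 and −1.81. The ligand Jag1 had 1.31, 3.91, 0.37 and 0.02 and was not called, and MSI1 stood far above the rest with 511 footprints against 42 in KH2. Numb had 0, 7, 20 and 2 footprints and could not be measured.

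The order of TE differed between the families for 890 genes. Tested as an interaction of assay and family, C1 and C4 against KH2 and MSI1, TE was higher in the floxed lines for 349 genes (8.57% of those tested) and lower for 541 (13.3%) at an edgeR adjusted p under 0.05. Among low-copy genes the numbers were 199 (5.83%) and 502 (14.7%). These counts rest on which lines are used: 384 genes in all differed without MSI1 and 1361 without C4. With TMM scaling, which does not centre the lines, the split was 377 higher to 465 lower.

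Ribosomal proteins and the other TOP mRNAs had higher TE in the floxed lines in every case, and all but 1 passed the test. Of 37 cytosolic ribosomal proteins, 36 were called higher and 0 lower, with a median difference of 2.91 on the log2 scale and a range of 0.73 (Rps25) to 4.05 (Rpl35a). Of 12 elongation factors and other TOP mRNAs, all 12 were higher, with a median of 2.78 and a range of 1.53 to 3.90. Leaving out each line in turn, changing the scaling, and using DESeq2 or limma kept the calls at 36 or more of 37 and at 12 of 12. The 2 low-copy members of the TOP list were both higher. Eif3f, an initiation factor subunit, had log2 TE of −2.88, −3.35, 0.08 and −0.22 in KH2, MSI1, C1 and C4 (difference 3.06 ± 0.23 SE, edgeR adjusted p = 1.32e-11). Gnb2l1, the ribosomal scaffold RACK1, had −2.81, −3.32, −0.42 and −0.35. In neither gene did the families overlap. Elsewhere in the translation machinery, 7 of 22 initiation and termination factors, 3 of 17 cytosolic tRNA synthetases and 2 of 38 mitochondrial ribosomal proteins were higher and 1 of the last was lower, against 8.57% higher and 13.3% lower of all tested genes.

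The footprints differed between the families, and the mRNA by far less. Relative to the median gene of the library, the footprint level of all 37 ribosomal proteins was higher in the floxed lines, by a median of 2.38 on the log2 scale, and the RNA level was higher for 7 of 37 with a median difference of −0.59. For the other TOP mRNAs the footprint level was higher for 12 of 12, by a median of 2.55, and the RNA level for 4 of 12, with a median of −0.25. Eef1a1 had RNA levels of 562, 552, 704 and 671 RPKM in KH2, MSI1, C1 and C4 against footprint levels of 70.7, 66.7, 3136 and 576 RPKM. These RPKM values are not on one scale across the families. Eef1a1, the elongation factor that brings aminoacyl-tRNA to the ribosome, had log2 TE of −1.17, −1.35, 2.82 and 2.46 (difference 3.90 ± 0.31 SE, edgeR adjusted p = 3.57e-11), with 99.2% repeated words. Eef2, the translocase, had −2.61, −2.92, −0.16 and 0.16, and the poly(A)-binding protein Pabpc1 had −2.62, −3.57, 0.75 and 0.26. The other TOP mRNAs had median log2 TE of −1.12 and −1.45 in KH2 and MSI1 and of 2.23 and 1.87 in C1 and C4. Several glial and neuronal markers such as Gfap, the time point and the table of footprints moved with the same split, and their part in it cannot be told apart.

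**Figure D4:**
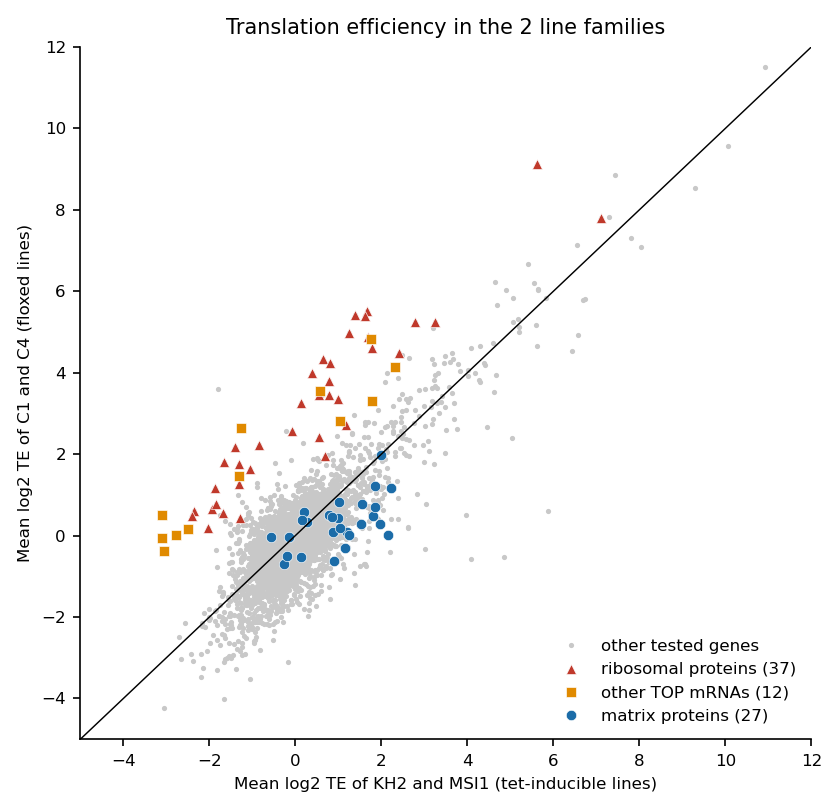
Each point is a gene, with its mean log2 TE in KH2 and MSI1 on the horizontal axis and in C1 and C4 on the vertical axis; the line marks equal TE. All 37 ribosomal proteins and all 12 other TOP mRNAs lie above the line, and most of the 27 matrix genes below it.

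**Figure D5:**
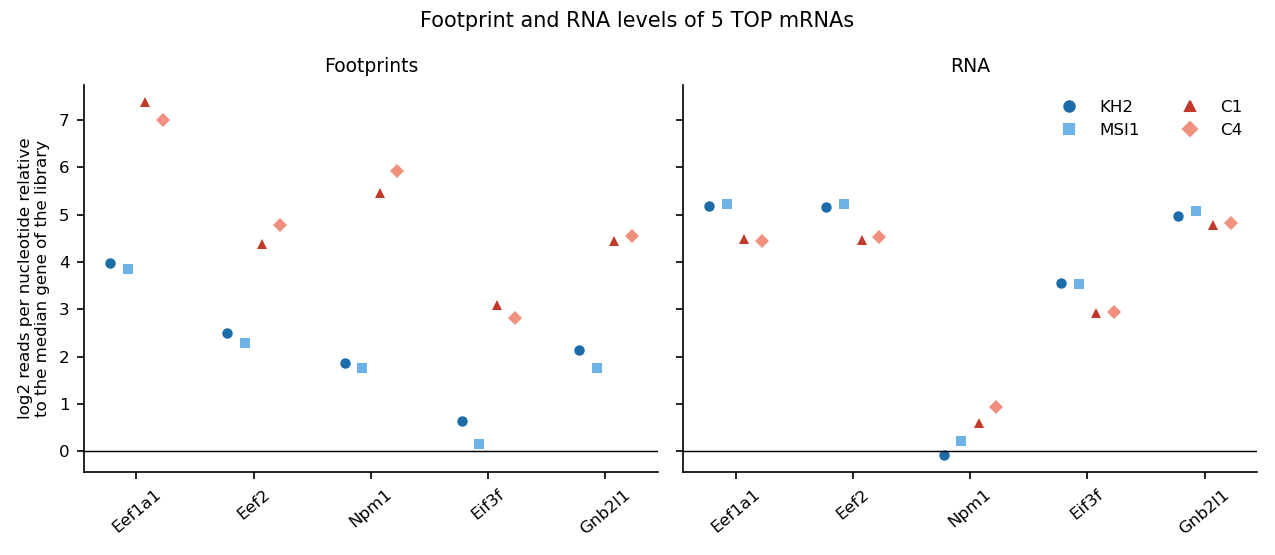
For 5 TOP mRNAs, each point gives the log2 reads per nucleotide in 1 line relative to the median gene of that library, for footprints on the left and RNA on the right. Footprint levels of C1 and C4 stand above those of KH2 and MSI1 for all 5, while the RNA levels lie close together for Eef1a1, Eef2, Eif3f and Gnb2l1.

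The start sites of these mRNAs were examined for the pyrimidine tract that defines a TOP mRNA. The 28-base windows run from 10 bases before to 17 bases after the RefSeq first base on GRCm38.p6, with capitals for a run of at least 7 pyrimidines that has a C within 5 bases of the first base, which is the eleventh letter.
Eef1a1 (chr9:78481707-78481734, minus strand): ctccgCCCTCTTCCCgagggtgggggag
Eif3f (chr7:108934405-108934432, plus strand): tctaggCTCTCTCTCTTTCTCggcaaga
Rpl14 (chr9:120571507-120571534, plus strand): ggCCCTCTCTCTTCTCgctgagcgccgc
Rpl35a (chr16:33056472-33056499, plus strand): gcttgCCTTCCTCTTTCCgccatcttgg
Eef2 (chr10:81176621-81176648, plus strand): aaggccgggcgttgacgtcagcggtctc
Lama5 (chr2:180225842-180225869, minus strand): cccaaactagacttgccgggctcctgcg
The first 4 have the run and were higher in the floxed lines by 3.06 to 4.05. Eef2, higher by 2.77, has none in this window, and neither has Lama5, which was lower. A run was present in 12 of the 27 ribosomal protein genes with a window (44.4%) and in 4 of 7 other TOP genes, against 15.2% of all tested genes and 14.8% of 27025 RefSeq genes. Of all genes higher in the floxed lines 24.0% had the run, and of those lower 14.1%. RefSeq first bases are approximate, so a missing run says only that these letters are not in this window.

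Cytosolic chaperones, which fold new proteins, were likewise higher in the floxed lines in 14 of 23 cases and lower in 0. Of all tested genes 8.57% were higher and 13.3% lower. Among the 14 low-copy chaperones 8 were higher and 0 lower, against 5.83% and 14.7% of low-copy genes. The chaperonin subunits Cct2, with −1.48, −1.57, 0.20 and −0.10, and Tcp1, with −1.29, −1.38, 0.49 and −0.04, are low-copy and were higher by 1.57 ± 0.21 SE and 1.56 ± 0.22 SE (edgeR adjusted p = 1.89e-06 and 4.05e-06). Vim itself had log2 TE of −1.57, −1.45, 0.02 and 0.02 and was higher by 1.53 ± 0.41 SE (edgeR adjusted p = 0.00687), while its RNA level relative to the median gene was 6.05 to 6.28 in all 4 lines. Nes, the other intermediate filament of NSCs, went the opposite way, with 0.07, 0.09, −1.19 and −0.54.

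Matrix, adhesion and chromatin genes were among those lower in the floxed lines. Of the 27 matrix genes 13 were lower and 0 higher, with a median difference of −0.76; without KH2 or without MSI1, 7 were. Lama5, a laminin alpha chain of basement membranes, had log2 TE of 2.01, 2.31, −0.27 and 0.28 in KH2, MSI1, C1 and C4 (difference −2.17 ± 0.23 SE, edgeR adjusted p = 1.65e-08). Fn1, fibronectin, had 1.53, 1.5, 0.23 and 0.35. Of 33 cadherins and neural adhesion molecules 12 were lower, led by Celsr2 with 1.30, 1.41, −1.13 and −0.72. In the Notch list 8 of 14 were lower, and in the chromatin list 11 of 39, while 1 was higher, against 13.3% lower of all tested genes and 14.7% of low-copy genes. The histone methyltransferase Mll2 had 1.90, 1.37, −1.08 and −0.41, and so stood above the median gene in one family and below it in the other. Genes lower in the floxed lines had a median counted exon length of 2180 nt, against 640 nt for those higher and 1239.5 nt for all tested genes.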

How the data were processed

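Untreated E12.5 libraries were grouped by line from their labels, and the remaining samples were not used, apart from the untreated MSI2 RNA-Seq library in 1 alternative. The authors deposited read counts per gene and RPKM values for RNA-Seq (paired end) and, over listed coding exons, for Ribo-Seq (single end). The submitters' processing notes name Bowtie, TopHat and mm9 with no versions. The RPKM of the files equals the deposited count over length and a constant per library. In 1860 genes (45.7%) the RNA length was that of the footprint exons minus 40 nt each, and the other genes had other exon sets. The counted footprint exons can be short, such as 202 nt for Notch1, 324 nt for Eef1a1 and 309 nt for Pabpc1.

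TE came from deposited RPKM. edgeR 4.0.16 (R 4.3.3) was fitted to counts of all 4070 genes with line and assay, offsets for length and for the median TE of each line, and Benjamini-Hochberg adjustment. The family test added an interaction. Each line and assay has 1 library. Steps were tested on simulated data with known changes.

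Low-copy genes were defined after the data were seen, from 32-base words of the listed exons in NCBIM37. Leaders came from GENCODE vM1, in which 96.4% of the exon ends were found, and start windows from RefSeq (GRCm38.p6), which matched 2977 genes. Gene lists (37), the panel and the members were chosen with earlier results of these data known. Named genes were the 12 highest and 12 lowest called genes with over 100 reads in all 8 libraries, the panel, the ends of each list, and the 6 widest ranges; others were chosen after their values were seen. Results of 3 genes are not reported here. Alternatives covered read limits, lengths, scalings, fold limits, DESeq2 1.42.0, limma 3.58.1, each line left out, each family alone and the RNA library used.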

Additional observations from a re-analysis of the deposited data

Results flagged for a closer look

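Single lines stood far from the other 3 for 2 of the named genes. Sirt2 had a log2 TE of 10.31 in KH2 against −0.62, −0.81 and −0.25 in MSI1, C1 and C4. Ptpra had −1.65 in C4 against −1.54, −1.55 and −1.54, a gap that is large only beside the very small spread of the other lines.

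Named genes whose TE differed between the families by the interaction test (edgeR, adjusted p under 0.05) are given by their log2 difference, floxed minus tet-inducible lines. In the translation machinery these were Rpl35a 4.05, Eef1a1 3.90, Rpl14 3.72, Pabpc1 3.68, Rpl22 3.48, Npm1 3.10, Eef2 2.77 and Rplp0 2.59. Hspa8 (1.88), Vim (1.53), Oaz1 (1.10) and Tmsb10 (0.96) were also higher in the floxed lines.

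Lower in the floxed lines were the Notch ligand Jag1 (−2.64), Atf4 (−2.40), Hist1h1c (−1.91), 2610507B11Rik (−1.72), Hist3h2a (−1.65) and Rnf10 (−1.51). Smaller differences in the same direction were those of Bai2 (−1.13), Actb (−1.03), Sox2 (−1.0), Nes (−0.96), H3f3a (−0.95), Mll5 (−0.91), Dennd5a (−0.75), Setd5 (−0.73), Ftl1 (−0.71) and Ccnd2 (−0.67). With limma the differences of H3f3a, Mll5, Dennd5a, Setd5, Ftl1 and Ccnd2 did not pass, and with DESeq2 those of Ftl1 and Jag1 did not. Jag1 rests on MSI1, whose log2 TE of 3.91 compares with 1.31 in KH2; without MSI1 the difference was −1.11 and no longer passed.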

How the results depend on the processing

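Among the named genes, no call above or below and no called family difference changed sign under any alternative. Sign changes of genes that were not called were not counted. Eef1a1, for instance, was below the median gene in KH2 and MSI1 and above it in C1 and C4. The number of genes above the median gene (371) and below it (308) followed the limits set: 626 and 670 with over 5 reads, 206 and 108 with over 50, 110 and 39 with over 100, 153 and 133 with matching lengths, 199 and 98 when tested against the 2-fold limit itself, 646 and 666 at 1.5-fold, and 208 and 100 at 3-fold. Low-copy genes alone, an alternative chosen after seeing the data and centred again on their own median, gave 107 above. C1 and C4 alone, with no test, gave 515 below. The top decile of all lines (226) became 124, 64, 101 and 71 with over 50 reads, over 100 reads, matching lengths and low-copy genes, and the bottom decile (132) became 213, 57, 23, 64, 273 and 288 with over 5, over 50 and over 100 reads, matching lengths, KH2 and MSI1 alone and C1 and C4 alone. Consistent lists (4) became 7 with KH2 and MSI1 alone, 2 with the MSI2 RNA library, 2 with matching lengths and 0 with low-copy genes, where 3 of the 4 lists had under 5 members left and could not be counted. The ratio of median exon length, bottom over top decile, was 2.89, and 1.81 with KH2 and MSI1 alone. Genes differing between families (890; 349 higher, 541 lower) became 572 with over 50 reads (327 lower), 287 with over 100 (131 higher, 156 lower) and 311 with matching lengths (110 higher, 201 lower). Leaving out each line gave 340 to 376 above, 248 to 380 below, and 384 to 1361 differing between families, of which 154 to 569 higher and 230 to 792 lower; a family of 1 line is then assumed to vary like the others. Fewer genes enter with a higher read limit or matching lengths; the cause of the other shifts was not tested.

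For the 55 named genes, 1370 of 1454 alternatives gave the same call, 67 lost it, 10 gained it and 7 moved. In the runs without a test, a value within its SD over lines was counted as the same. The lost calls included family differences, of which those of H3f3a, Mll5, Dennd5a, Setd5, Ftl1 and Ccnd2 were lost with limma. With DESeq2 those of Ftl1 (−0.71) and Jag1 (−2.43) were lost. Of the genes called above or below, 9 lost the call somewhere. Against the 2-fold limit itself these were 2610507B11Rik, Bai2, mt-Nd5, Msi2, Rpl14 and Rpl35a, and at 3-fold Erbb2ip, Ptpra, Ttyh3 and Msi2. Msi2 (log2 TE 1.07) also lost it with over 50 reads (0.97), without KH2 (0.98) and without C4 (0.95). Rpl14 (2.51) lost it with over 50 and over 100 reads (2.41 and 2.33), without C1 (1.82) and without C4 (1.69), and Rpl35a (3.43) with over 100 reads (3.25), without C1 (2.55) and without C4 (2.59). The fit paired RNA and footprints by line, and the labels give the untreated samples no shared replicate numbers for any other pairing. Depth limits KH2 most, with a median of 53 footprints per tested gene, and intervals of single genes there are wide.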
